A study of Mus musculus with 21 samples.

Results

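Cultured smooth muscle cells of the mouse aorta that received TNFalpha and an antibody to the lymphotoxin beta receptor together for 24 h were compared with cells that received PBS, the solution in which both agents were supplied. The comparison holds 6 of the 21 arrays of the series, 3 for TNF plus anti-LTBR and 3 for PBS, and pairs arrays that carry the same number from 1 to 3 in their titles. PBS arrays numbered 0 were not used, because the combination has no array of that number. The combination held TNFalpha at 1 ng/ml and anti-LTBR at 10 µg/ml. Cells given TNFalpha at 1 ng/ml alone, or anti-LTBR at 10 µg/ml alone, for 24 h gave 3 further arrays each, which share the estimate of the spread. All 4 groups were cells from male C57BL/6J mice aged 10 to 12 weeks, kept in DMEM/F12 with 10 percent FCS and fed 24 h before stimulation. Whether different numbers stand for separate cultures or mice is not given in the labels, and p-values here reflect the spread among these samples alone, which may be technical. Per its title, the series asks how vascular smooth muscle comes to resemble the organizer cells of lymphoid tissue when a TNF receptor and LTBR signal together.

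TNF receptors and the lymphotoxin beta receptor (LTBR) both act on NF-kB, a family of transcription factors. The canonical arm frees RelA-containing dimers from inhibitory IkB proteins. The non-canonical arm, which LTBR engages, stabilizes the kinase NIK (gene Map3k14) and turns the p100 precursor encoded by Nfkb2 into a partner of RelB. In developing lymph nodes, stromal organizer cells answer LTBR ligands with adhesion molecules and lymphocyte-attracting chemokines. Smooth muscle cells of the artery wall are known above all for contractile proteins that depend on serum response factor.

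Each of 12278 genes was represented by its probe set of the highest mean, and values were analysed as log2(signal + 10.2). A gene was called when its Benjamini-Hochberg adjusted p from limma was under 0.05 in a fit of the 12 arrays with the array number as a block. Differences on the log2 scale are given ± SE of the fit, and signals of 3 arrays are listed in the order of numbers 1 to 3. Fold changes are on the scale of log2(signal + 10.2), which understates the change of genes with low signals.

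In cells given TNF plus anti-LTBR, 999 genes were called higher than in PBS, 8.14 percent of those tested, and 1170 genes, 9.53 percent, were called lower. The rises were the larger changes. Genes at least 2-fold higher numbered 200 (1.63 percent), against 87 genes at least 2-fold lower (0.709 percent). Of the called genes 21 rose at least 8-fold, whereas the largest fall was 5.88-fold (Sost). The median difference was 0.501 among the rises and -0.408 among the falls, where the median of all tested genes was 0.003775. Chemokine, interferon-inducible, NF-kB and antigen presentation genes led the rises, while contractile, matrix and signalling genes were among the falls. All 3 pairs of arrays moved the same way in 996 of the 999 rises and in 1165 of the 1170 falls. The calls rest on these same pairs, so that such agreement follows largely from how genes were called. The 3 combination arrays lay above the 3 PBS arrays in 707 of the rises, 70.8 percent, where 9.37 percent of all tested genes did so, and below them in 605 of the falls, 51.7 percent, where 8.35 percent of all tested genes did.

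**Figure D1:**
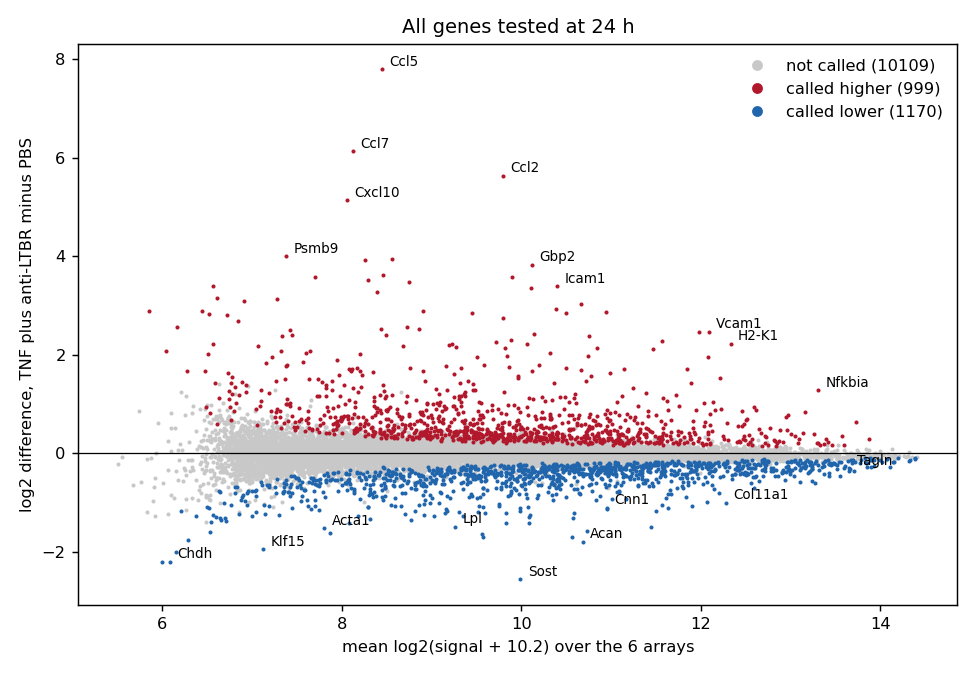
Each point is 1 of the 12278 tested genes. The horizontal axis is the mean log2(signal + 10.2) over the 6 arrays, the vertical axis the fitted log2 difference of TNF plus anti-LTBR minus PBS. The 999 genes called higher (red) reach 7.79 (Ccl5), and the 1170 genes called lower (blue) reach -2.56 (Sost).

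The counts rested on the pairing of arrays. Without the block 264 genes were called higher and 107 lower. With number 1 left out of all 4 groups 502 genes were called higher and 546 lower. The number called lower was 704 and 708 without numbers 2 and 3, and 754 without the combination's array 2 alone.

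The cultures carried smooth muscle markers. Of 9 such markers, Acta2, Tagln, Cnn1, Myh11, Smtn, Cald1, Myl9, Des and Lmod1, 7 were called lower and 8 lay above the median of the array on all 6 arrays, and their summed signals were 49968, 59084 and 63459.7 with the combination, against 65661, 77262 and 70921 with PBS. Endothelial markers were mixed. Of 25 on the array, 6 (Eng, Emcn, Erg, Fli1, Kdr and Mmrn2) lay above the array median on all 6 arrays and 8, among them Tie1, Tek and Vwf, below it on all 6. Pecam1 had 376, 150 and 84.7 with the combination, against 319, 96.6 and 68.6 with PBS, and Cdh5 had 292, 118 and 126 with the combination, against 191, 74 and 130 with PBS, so that array 1 was the highest in both groups. The 25 markers summed to 7953, 4659 and 4760 with the combination, against 8562, 4624 and 5354 with PBS. Of the 17 tested 1 (5.88 percent) was called higher and 3 (17.6 percent) lower, against 8.14 and 9.53 percent of all tested genes. The falls were 1 to 3 with any 1 array or number left out. The macrophage and monocyte markers, 28 in number, summed to 4027, 3329 and 10606.5 with the combination, against 3574, 3076 and 10518 with PBS. Both arrays of number 3 were thus high. C1qa, a macrophage complement subunit, had a signal of 268 and 246 on these arrays and at most 12.3 on the other 4. Of 18 tested macrophage and monocyte markers 1 was called higher and 0 lower. Summed signals of 22 lymphocyte markers were 2521, 2908 and 4379 with the combination, against 2397, 2652 and 4474 with PBS, and none of the tested ones was called. For 18 markers of cultured fibroblasts and the adventitia the sums were 46334, 33883 and 34983 with the combination, against 44528, 35756 and 34686 with PBS. Of the 16 tested 2 were called higher and 2 lower, 12.5 percent each way. Nerve and glia markers, 16 in number, summed to 4436, 3436 and 5092 with the combination, against 6097, 4520 and 6814 with PBS. Of the 9 tested 1 was called higher and 3 lower, 33.3 percent against 9.53 percent of all tested genes. The falls were 3 with any 1 array or number left out. The share of these other cell types in the results was not tested.

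Chemokines, the secreted proteins that attract leukocytes, held the largest rises. Of 11 tested CC chemokines 5 were called higher, and of 8 tested CXC and CX3C chemokines 4 were called higher and 1 lower. The fall was Cxcl14 (-0.58 ± 0.17, adjusted p = 0.0329), chosen after its values were seen, and with any 1 array or number left out none of the list was called lower. Ccl5, which attracts T cells and monocytes, had signals of 5704, 5885 and 4115 with the combination, against 13.2, 10.1 and 17 with PBS. All PBS arrays thus lay at the low end of the scale, and every combination array far above them. Ccl5 rose 221-fold (7.79 ± 0.18, adjusted p = 7.92e-10), the largest change of any tested gene. The monocyte attractants followed. Ccl7 had 4029, 2097 and 1494 with the combination, against 37.6, 26.8 and 11.1 with PBS, and Ccl2 had 8409.8, 6166 and 4666 with the combination, against 236, 111 and 56.7 with PBS. In both, every combination array lay far above the PBS arrays (6.12 ± 0.19 for Ccl7 and 5.63 ± 0.18 for Ccl2, adjusted p = 3.53e-09 for each). Ccl9, another attractant of myeloid cells, rose 3.92-fold, with 4773, 2809 and 2903 under the combination and 860.3, 782 and 939 under PBS.

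Cxcl10, an interferon-inducible ligand of CXCR3 on activated T cells, had signals of 1571, 2064 and 1187 with the combination, against 13.9, 32.7 and 77.7 with PBS, and rose 35.1-fold (5.13 ± 0.34, adjusted p = 1.7e-06). The PBS arrays were uneven, and the groups were far apart. Both chemokines that are made as membrane-anchored proteins rose. Cxcl16 had 1897, 2049 and 1666 with the combination, against 241, 249 and 258 with PBS, and Cx3cl1 (fractalkine) had 3255, 3326 and 1601 with the combination, against 583, 804 and 509 with PBS. Neither gene's groups overlapped, and the rises were 7.23-fold and 4.12-fold. The neutrophil attractant Cxcl1 rose 2.31-fold by its brightest probe set, and its other 2 probe sets gave log2 differences of 2.13 and 3.69. Without the block the number of CC chemokines called was 4 and of CXC and CX3C chemokines called higher 4.

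Promoters of Cxcl10 and of 3 NF-kB pathway genes described next are shown because these genes rose and the windows hold matches to the kB motif. Each window runs from 250 bases before to 50 after a gene start, from RefSeq on GRCm38.p6, 5′ to 3′ on the gene's strand. For Nfkb2 it is 1 of 3 starts in RefSeq and for Tnfrsf9 1 of 2. Capitals mark the kB motif, searched as GGG, any 3 bases and TTCC, or the interferon-stimulated response element, searched as GAAA, any 2 bases and GAAA, both read on either strand. In Cxcl10 (chr5:92348840-92349139, minus strand) the first capitals, 213 bases before the start, match the interferon motif, and both later stretches, at 159 and 104 bases before it, the kB motif. In Nfkb2 (chr19:46304487-46304786, plus strand) 2 kB matches lie 38 and 11 bases before the start. In Tnfrsf9 (chr4:150927749-150928048, plus strand) 1 kB match lies 43 bases before it. In Nfkbia (chr12:55492598-55492897, minus strand) 1 lies 29 bases before it.
Cxcl10: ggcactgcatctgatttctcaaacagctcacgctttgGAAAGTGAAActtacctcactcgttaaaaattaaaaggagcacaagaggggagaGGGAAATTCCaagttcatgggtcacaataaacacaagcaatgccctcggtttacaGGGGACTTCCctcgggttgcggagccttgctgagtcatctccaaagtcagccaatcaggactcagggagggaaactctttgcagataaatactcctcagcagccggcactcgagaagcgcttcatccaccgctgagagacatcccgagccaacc
Nfkb2: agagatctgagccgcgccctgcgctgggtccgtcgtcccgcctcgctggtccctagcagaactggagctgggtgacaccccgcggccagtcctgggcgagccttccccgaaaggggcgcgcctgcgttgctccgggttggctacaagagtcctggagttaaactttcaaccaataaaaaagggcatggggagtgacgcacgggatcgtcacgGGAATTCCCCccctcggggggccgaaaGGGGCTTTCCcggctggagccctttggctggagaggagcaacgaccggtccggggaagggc
Tnfrsf9: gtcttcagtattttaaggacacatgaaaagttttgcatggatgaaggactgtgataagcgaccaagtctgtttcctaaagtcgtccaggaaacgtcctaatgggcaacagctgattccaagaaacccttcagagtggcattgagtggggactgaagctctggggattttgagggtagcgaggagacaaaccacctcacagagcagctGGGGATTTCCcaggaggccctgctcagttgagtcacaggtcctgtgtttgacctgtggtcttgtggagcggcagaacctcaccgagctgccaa
Nfkbia: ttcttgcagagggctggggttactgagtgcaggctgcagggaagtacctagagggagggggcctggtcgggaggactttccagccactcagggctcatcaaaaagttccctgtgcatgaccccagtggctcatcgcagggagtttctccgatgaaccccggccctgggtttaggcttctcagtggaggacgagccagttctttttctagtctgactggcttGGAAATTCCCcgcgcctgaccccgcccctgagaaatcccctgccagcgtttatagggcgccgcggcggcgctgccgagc

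Most genes of the non-canonical NF-kB arm rose, and some of the canonical arm. Of 8 tested genes of the non-canonical arm 6 were called higher, with a median difference of 1.11. Nfkb2, which encodes p100, had 1865, 1245 and 919 with the combination, against 202, 196 and 114 with PBS, a rise of 7.39-fold (2.89 ± 0.15, adjusted p = 3.08e-07). Relb, its partner, had 1158, 840.2 and 653 with the combination, against 202, 178 and 170.3 with PBS, a rise of 4.51-fold. Every combination array of both genes exceeded every PBS array by a wide margin. The ubiquitin ligases that hold NIK in check also rose. Birc3 had 2521, 2384 and 1494 with the combination, against 415, 431 and 405 with PBS. Birc2 rose 2.78-fold and Traf2 1.68-fold, with no overlap of the groups. NIK itself, Map3k14, had 277, 329.9 and 455 with the combination, against 218, 234 and 358 with PBS, so that the groups overlapped. Its call (0.38 ± 0.12, adjusted p = 0.0443) was lost when any 1 of the 6 arrays was left out, with adjusted p of 0.0533 to 0.164. The receptor Ltbr itself was not called (0.06 ± 0.08, adjusted p = 0.698), with 1581, 1363 and 1315 under the combination and 1430, 1339 and 1315 under PBS. Tnfrsf12a, another receptor of this arm, was not called either (-0.01 ± 0.19).

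Of 16 tested genes of the canonical arm 5 were called higher and 11 were not called, with a median difference of 0.07. Rela, the p65 subunit, rose 1.36-fold, with 2845, 3068 and 3020 under the combination and 2009, 2338 and 2241 under PBS. Ikbke, an IKK-related kinase that acts in interferon induction, rose 5.89-fold, with 212, 187 and 109.9 under the combination and 14.7, 23.3 and 20.6 under PBS. The count of the canonical arm was 2 without the combination's array 1 or number 1, and 3 without the combination's array 2, PBS array 1 or 3, or number 2 or 3.

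Several inhibitors of NF-kB rose too. Of 7 tested genes of the IkB family list 5 were called higher and 1 lower. The fall was Nkiras1 (-0.31 ± 0.08, adjusted p = 0.0236), chosen after its values were seen. Nkiras1 is counted because it is on the list, although it is not itself an IkB protein. Its call was lost without the combination's array 1 or 2, PBS array 2 or 3, or any number (adjusted p = 0.0585 to 0.141). Nfkbie, which encodes IkB epsilon, had 2118, 1254 and 614 with the combination, against 103, 61.7 and 49.1 with PBS, and rose 15.1-fold (3.92 ± 0.17, adjusted p = 8.2e-08). Array 1 was highest and array 3 lowest in both groups, and the groups did not overlap. Nfkbia, which encodes IkB alpha, was already abundant with PBS. It had 18172, 14904 and 14595 with the combination, against 7377, 6636 and 5623 with PBS, and rose 2.43-fold (1.28 ± 0.04, adjusted p = 3.53e-09). Bcl3, a nuclear IkB protein, rose 8.85-fold from low signals, with 316, 197 and 349 under the combination and 51.8, 11.2 and 16.3 under PBS. Among 13 tested negative regulators 4 were called higher. Tnfaip3 (A20), a ubiquitin-editing enzyme that ends NF-kB signalling, had 2333, 3029.8 and 1727 with the combination, against 374, 621 and 493 with PBS. It rose 4.66-fold, and its binding partner Tnip1 rose 2.23-fold.

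In the TNF superfamily 4 of 17 tested ligands and receptors were called higher. Tnfrsf9 (4-1BB), a costimulatory receptor known from activated T cells, had 774, 655 and 706 with the combination, against 70.6, 54.8 and 32 with PBS, and rose 11.9-fold (3.57 ± 0.19, adjusted p = 3.76e-07). The 3 combination arrays lay close together, and the PBS arrays were all under 100. Tnfrsf1b, the second TNF receptor, rose 2.27-fold, with 690.2, 554 and 454 under the combination and 286, 183 and 265 under PBS.

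Of 12 tested lymphoid tissue organizer genes 7 were called higher, with a median difference of 0.72. Nfkb2 and Relb, described above, are counted among them, as are adhesion molecules by which stroma holds lymphoid cells. Icam1 had 4719.6, 5539.5 and 3160.4 with the combination, against 662, 374 and 269 with PBS, and rose 10.5-fold (3.39 ± 0.17, adjusted p = 2.95e-07). Vcam1 had 10501, 11364 and 8981 with the combination, against 2065, 2069 and 1457 with PBS, and rose 5.54-fold (2.47 ± 0.07, adjusted p = 1.77e-09). Both were far above PBS on every array. The B cell attractant Cxcl13 had 406, 660 and 509 with the combination, against 109.5, 127 and 265 with PBS, and rose 3.18-fold (1.67 ± 0.20, adjusted p = 0.000155). PBS array 3 was high for its group and still below the lowest combination array, and the second Cxcl13 probe set gave 2.48. Il7, a survival factor of lymphocytes, had 258, 272 and 266 with the combination, against 169, 143 and 166 with PBS. It rose 1.63-fold, and Bst1, a stromal surface enzyme that aids pre-B cell growth, rose 1.67-fold, with 552, 428 and 579.9 under the combination and 281, 264 and 379.6 under PBS.

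The other tested organizer genes were not called. Cxcl12, the stromal ligand of CXCR4, was among the brightest genes of both groups, with 19134, 16590 and 16237 under the combination and 18677, 17283 and 16608 under PBS (-0.02 ± 0.03, adjusted p = 0.764). Its other 2 probe sets gave 0.31 and 0.49. The stromal surface protein Pdpn had 3426, 2039.7 and 1627 with the combination and 2861, 2167 and 1502 with PBS, with overlapping groups (0.10 ± 0.08, adjusted p = 0.498). Tnfsf13b (BAFF), a B cell survival factor, had 98.2, 122 and 141 with the combination and 100, 110.5 and 110.1 with PBS. Tnfrsf11b, the decoy receptor osteoprotegerin, had 5186, 6019 and 7281 with the combination and 7012, 5751 and 8799.7 with PBS (-0.21 ± 0.10, adjusted p = 0.172). Without PBS array 2 it was called lower (-0.37, adjusted p = 0.0037). The number of organizer genes called higher was 6 without the block, and 6 to 7 with any 1 array or number left out. A probe set that carries Ccl19 among several gene symbols was outside these counts. Its signal cannot be given to Ccl19 alone. It had 1744.2, 774.6 and 432.5 with the combination, against 60.8, 77.1 and 80.1 with PBS (3.36 ± 0.36, adjusted p = 0.000142 among such probe sets). With TNF it had 371.2, 205.7 and 89.1, and with anti-LTBR 267.6, 155.1 and 168.2.

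**Figure D2:**
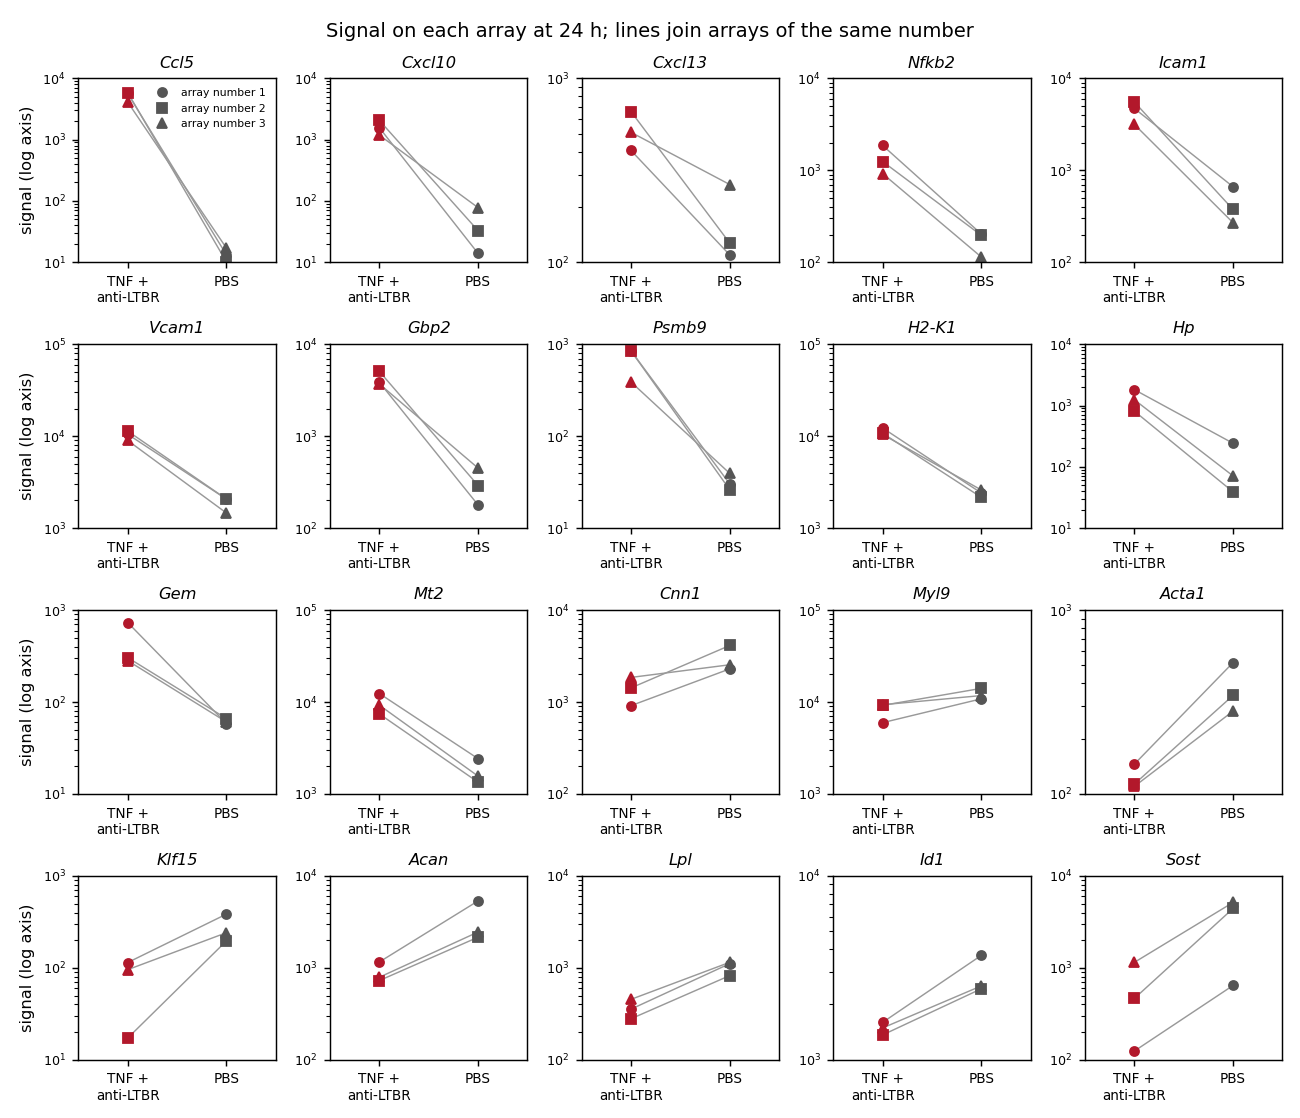
Signal (log axis) of 20 genes on each array at 24 h, with TNF plus anti-LTBR on the left and PBS on the right. Symbols mark array numbers 1 to 3 and lines join arrays of the same number. Ccl5 is at least 4115 on the 3 combination arrays and at most 17 on the PBS arrays, while the lines of Sost all run lower with the combination although the groups overlap.

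Interferon-inducible genes rose as a group. All 9 tested interferon-inducible GTPases, which attack vacuoles of intracellular microbes, were called higher and at least 2-fold, with a median difference of 2.19. Gbp2 had 3863, 5068 and 3703 with the combination, against 178, 290.3 and 449 with PBS, and rose 14.1-fold (3.82 ± 0.23, adjusted p = 8.83e-07). Gbp3 had 2492, 4676 and 3023 with the combination, against 199, 249 and 374 with PBS, a rise of 11.9-fold. In both, array 3 was highest with PBS and array 2 highest with the combination. Ifi47 rose 4.38-fold, and Irgm1, a regulator of the other members, 2.09-fold. All 9 were called without the block over these 12 arrays, and with any 1 array or number left out.

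Of 32 tested antiviral effectors 26 were called higher and 1 lower, and 21 rose at least 2-fold, with a median difference of 1.43. Oasl2, of the 2'-5' oligoadenylate synthetase family, had 1379, 1997 and 1169.6 with the combination, against 71.6, 50 and 170.3 with PBS, and rose 15.5-fold (3.95 ± 0.36, adjusted p = 1.84e-05). Zbp1, a sensor of Z-form nucleic acid that can start necroptosis, had 319, 316 and 259 with the combination, against 50.6, 4.3 and 17.5 with PBS. The groups of both genes were far apart, and the PBS arrays of each were uneven. Ly6e rose 8.19-fold, Parp14 5.93-fold and Bst2 (tetherin, which holds budding virus at the cell surface) 5.19-fold, each without overlap. Bst2 had 3379.6, 4988 and 3609.9 with the combination, against 639.9, 723 and 913 with PBS. The fall was Ifitm1 (-0.79 ± 0.19, adjusted p = 0.0153), chosen after its values were seen. Its call was lost without the combination's array 2 or 3, PBS array 2, or number 2 or 3 (adjusted p = 0.0579 to 0.0796). The number of antiviral effectors called higher was 21 without the block and 25 to 27 with any 1 array or number left out.

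Several transcription factors of the interferon response were also higher. Of 16 tested IRF, STAT and Janus kinase genes 8 were called higher. Irf7, which amplifies type I interferon induction, had 1035, 1784 and 1169 with the combination, against 258, 226 and 391 with PBS, and rose 4.43-fold (2.15 ± 0.24, adjusted p = 9.24e-05). Irf1 rose 2.21-fold, with 1816, 1707 and 1810 under the combination and 856, 767 and 777 under PBS. Stat2 and Irf9, both part of the ISGF3 complex, rose 2.68-fold and 1.8-fold. The IRF and STAT count was 5 without the combination's array 1 and 4 without number 1. Usp18, which removes ISG15 from proteins and dampens the type I interferon receptor, rose 3.92-fold, with 1438, 2566 and 1585 under the combination and 379.8, 289 and 836 under PBS.

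The promoter of Gbp2 (chr3:142620413-142620712, plus strand) is shown because all 9 tested GTPases rose. In RefSeq the list had 8 promoters, and 6 of them, 75 percent, held a match to the interferon motif, against 2.88 percent of the promoters of all tested genes and 3.44 percent of all RefSeq promoters. Its first capitals, 59 bases before the start, are the interferon motif read on the other strand. The second capitals, 7 bases after the start, match the kB motif on the other strand.
Gbp2: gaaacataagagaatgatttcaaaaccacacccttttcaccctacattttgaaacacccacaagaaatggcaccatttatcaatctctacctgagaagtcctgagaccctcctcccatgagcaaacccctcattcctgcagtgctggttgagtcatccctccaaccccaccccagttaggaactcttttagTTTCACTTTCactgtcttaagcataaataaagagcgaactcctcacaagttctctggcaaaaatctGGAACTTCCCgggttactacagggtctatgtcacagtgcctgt

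Most tested genes of antigen presentation by MHC class I rose, both those that make peptides and those of the surface molecule. Of 12 tested class I and peptide loading genes 9 were called higher, with a median difference of 1.17. H2-K1, a classical class I heavy chain, had 12271, 10747 and 10426 with the combination, against 2399, 2154 and 2591 with PBS, and rose 4.67-fold (2.22 ± 0.07, adjusted p = 3.53e-09). H2-D1 had 9777, 8387 and 7522 with the combination, against 2603, 1776 and 2227 with PBS, a rise of 3.9-fold. The signals were even across arrays within each group. Class I heavy chains are near copies of each other, so that probe sets can share signal between them. Tapbp (tapasin), which holds the class I molecule at the peptide transporter, rose 2.89-fold.

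The 3 catalytic subunits that turn the proteasome into the immunoproteasome all rose. Psmb9 had 848, 849 and 389 with the combination, against 30.2, 26.1 and 39.3 with PBS, a rise of 15.9-fold (3.99 ± 0.27, adjusted p = 2.1e-06). Psmb8 had 1478, 1690.2 and 1169 with the combination, against 147, 75.3 and 148 with PBS, and Psmb10 had 2658, 2812 and 1594 with the combination, against 345, 266 and 401 with PBS. The 3 subunits were thus higher on every combination array, by 11.2-fold for Psmb8 and 6.69-fold for Psmb10. Psme1, a subunit of the PA28 activator, rose 1.83-fold. Subunits of the constitutive 26S proteasome moved little. Of 31 tested, 7 were called higher, the median difference was 0.06, and none rose 2-fold. That count was 4 without the combination's array 1 or PBS array 2, 3 without PBS array 1 or 3, and 2 without number 1 or 3. Of 9 tested genes of the MHC class II pathway 2 were called higher. The invariant chain Cd74 rose 2.63-fold, with 369.9, 418 and 297 under the combination and 126, 98.7 and 176 under PBS. Rfx5, a transcription factor of class II promoters, rose 1.45-fold, and the other 7 were not called.

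Innate sensing and acute phase genes gave a further group of rises. Of 27 tested pattern recognition genes 13 were called higher and 1 lower, and of 12 tested acute phase genes 8 were called higher. Tlr2, a receptor for bacterial lipoproteins, had 2417, 1581 and 1614 with the combination, against 414, 332 and 379.6 with PBS, and rose 4.81-fold (2.26 ± 0.12, adjusted p = 3.79e-07). Ddx58 (RIG-I), a sensor of viral RNA, rose 3.29-fold and Casp4 (caspase-11), a sensor of cytosolic lipopolysaccharide, 4.63-fold. Both were higher on all combination arrays. The fall was Irak2 (-0.45 ± 0.09, adjusted p = 0.00444), a kinase of Toll-like receptor signalling, chosen after its values were seen, and its call was lost without number 2 (adjusted p = 0.0551). Hp (haptoglobin) had 1818, 810.1 and 1244 with the combination, against 242, 38.9 and 70.9 with PBS, and rose 12.3-fold (3.62 ± 0.23, adjusted p = 1.16e-06). Lcn2, which binds bacterial siderophores, had 8172, 1462 and 3658 with the combination, against 742, 122 and 403 with PBS. Saa3, a serum amyloid A protein, had 2719, 389.6 and 1016 with the combination, against 133, 53.3 and 129 with PBS. In all 3 genes array 1 was the highest and array 2 the lowest within the combination, and the groups did not overlap. Of 20 tested complement genes 4 were called higher, among them Cfb (factor B), with 1032, 455 and 413 under the combination and 149, 144 and 116 under PBS (2.01 ± 0.20, adjusted p = 3.36e-05).

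Interleukins and growth cytokines moved both ways, while most called cytokine receptors were higher. Of all tested genes 8.14 percent were called higher and 9.53 percent lower. Of 18 tested interleukins and growth cytokines 4 were called higher and 4 lower, 22.2 percent each way, and 2 lower without number 3. Il6 had 614, 438 and 337 with the combination, against 314, 225 and 176 with PBS, and rose 1.9-fold. Csf1, the growth factor of macrophages, rose 1.66-fold from high signals, with 12061, 9721 and 9016 under the combination and 7265, 5733 and 5578 under PBS. Each pair of arrays moved the same way in both genes. Of 22 tested cytokine receptors 10 (45.5 percent) were called higher and 1 (4.55 percent) lower. The fall was Ackr4 (-0.78 ± 0.13, adjusted p = 0.00134), a scavenger of chemokines, chosen after its values were seen. Il13ra1, a receptor chain for interleukins 4 and 13, rose 2.62-fold, and Ifngr1, the ligand-binding chain of the interferon gamma receptor, 2.18-fold, with 2556, 2477 and 1816 under the combination and 1067, 1156 and 890 under PBS. Of 16 tested leukocyte adhesion genes 8 (50 percent) were called higher and 2 (12.5 percent) lower. Without the combination's array 2 or 3 or PBS array 2, 1 was called lower. Cd44, the hyaluronan receptor, had 8790.4, 6866 and 7063 with the combination, against 5491, 3411 and 3885 with PBS, and rose 1.8-fold. Among 32 tested apoptosis regulators 8 (25 percent) were called higher and 3 (9.38 percent) lower. The falls were 1 without PBS array 2 or 3 and 0 without the combination's array 2. Mlkl, the executor of necroptosis, had 1082, 1059.5 and 608 with the combination, against 424, 400.1 and 270.4 with PBS, and rose 2.43-fold, and Bid, a BH3 protein, rose 1.95-fold.

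**Figure D3:**
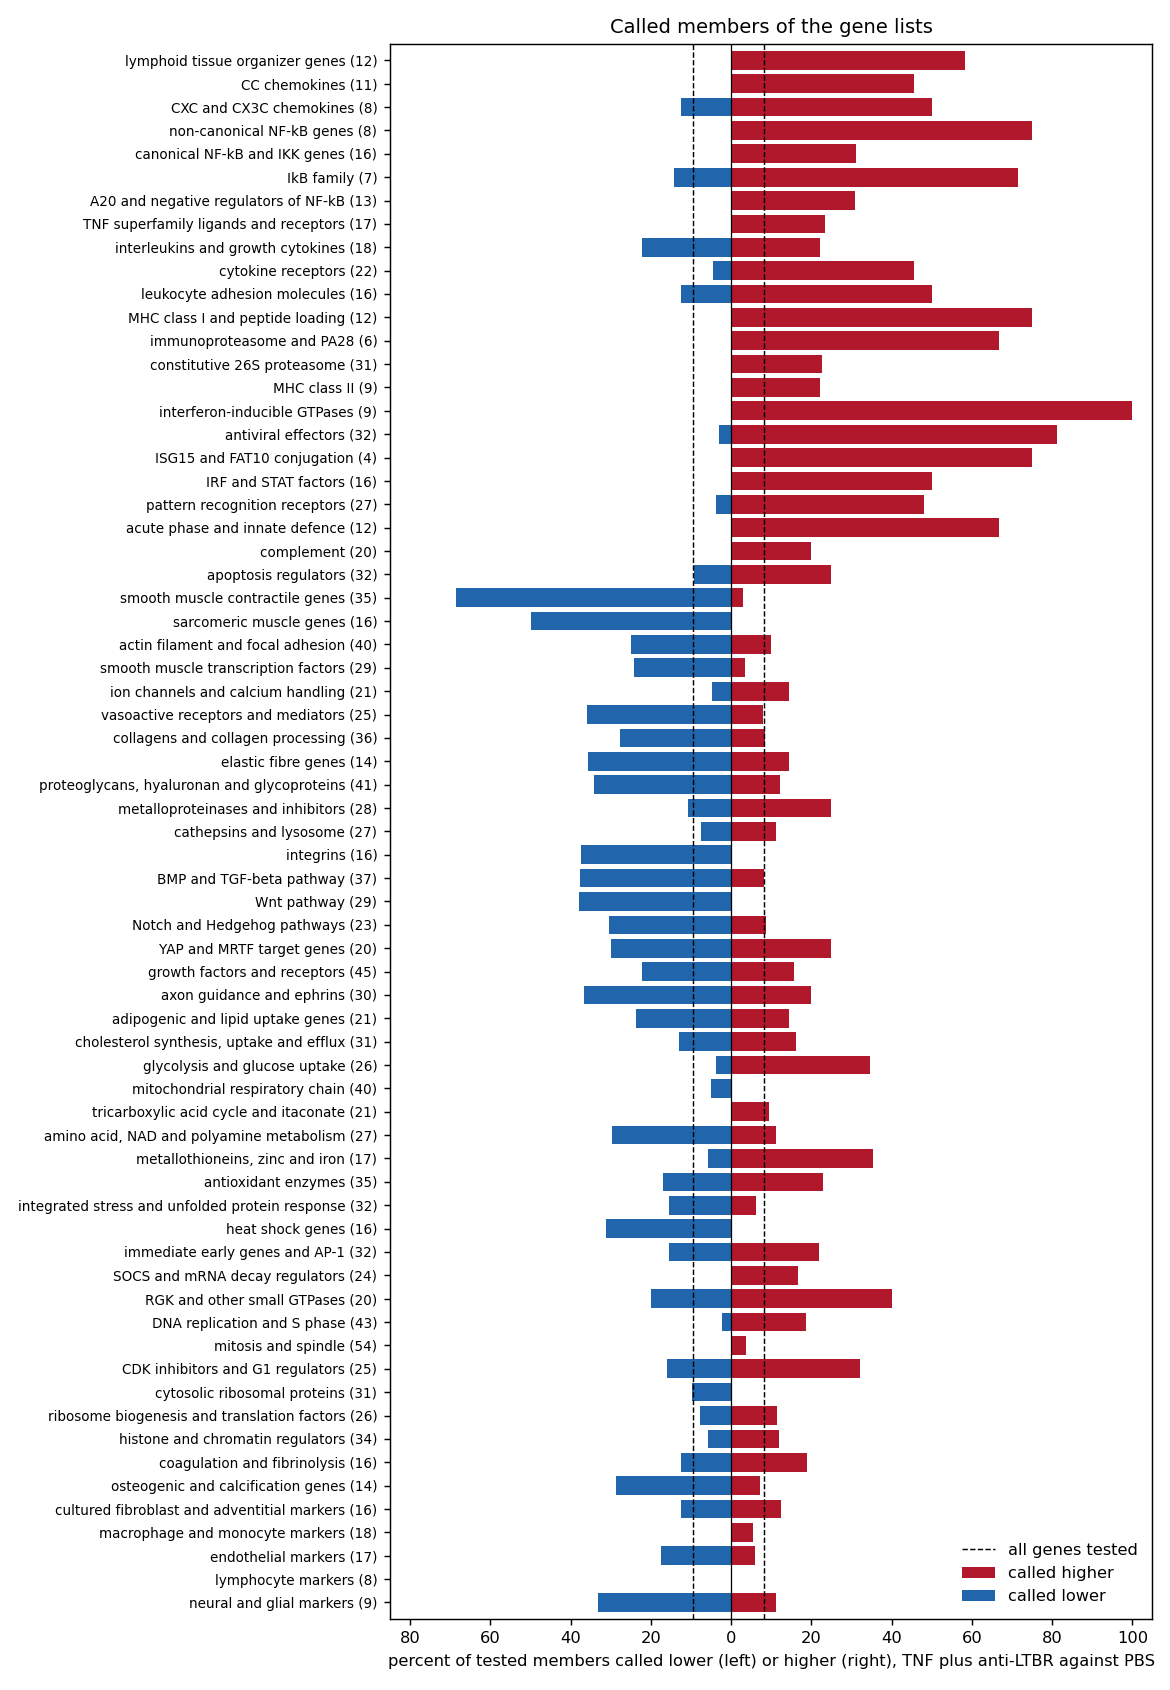
Percent of the tested members of each gene list (number tested in brackets) called higher (right, red) or lower (left, blue) in TNF plus anti-LTBR against PBS. Dashed lines mark all genes tested, 8.14 percent higher and 9.53 percent lower. Interferon-inducible GTPases reach 100 percent called higher, and smooth muscle contractile genes 68.6 percent called lower.

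Contractile genes of smooth muscle were lower with the combination. Of 35 tested contractile genes 24 were called lower and 1 higher, with a median difference of -0.32, so that most changes were under 2-fold. Cnn1, calponin, had 913, 1424 and 1852 with the combination, against 2293, 4124 and 2544 with PBS, and was 2.14-fold lower (-1.10 ± 0.15, adjusted p = 0.000308). PBS array 2 was the highest and combination array 1 the lowest, and the groups did not overlap. Myl9, the regulatory myosin light chain, had 5959.9, 9191 and 9338 with the combination, against 10840, 14081 and 11753 with PBS (-0.60 ± 0.07, adjusted p = 0.000177). Tagln (SM22), which binds actin, had 10305, 11986 and 12687 with the combination, against 13425, 15454 and 14620 with PBS, and was 1.25-fold lower. Every combination array of both genes lay below every PBS array. Fewer cells of a type and less RNA per cell cannot be told apart in such bulk samples.

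In some other contractile genes array 1 was low in both groups. Myh11, the smooth muscle myosin heavy chain, had 564, 2153 and 1738 with the combination, against 822, 3338 and 2519 with PBS. The groups overlapped, while each pair was lower with the combination (-0.57 ± 0.07, adjusted p = 0.000227). Lmod1, which nucleates actin, had 585, 866 and 849 with the combination, against 835, 1521 and 1194 with PBS, with the same order of arrays. Smtn (smoothelin) fell 1.7-fold. Susd5, 2.18-fold lower, was the list member with the smallest adjusted p (1.16e-06). It is counted because it is on the list, and nothing here shows it to be a contractile protein. The list was chosen with earlier results of these data known. Vcl (vinculin), which links actin to adhesions, fell 1.38-fold, the LIM protein Csrp1 1.37-fold and Tpm2 (tropomyosin) 1.37-fold. Ppp1r12b, a targeting subunit of myosin phosphatase, rose 1.59-fold, with 2326, 4162 and 2993 under the combination and 1105, 3147 and 2042 under PBS.

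Acta2, the smooth muscle actin, was near the top of the scale on every array. It had 16442, 16628 and 19662 with the combination and 18934, 18622 and 19651 with PBS and was not called (-0.12 ± 0.04, adjusted p = 0.0752), while its dimmer probe sets gave -1.02 and -0.92. Without the combination's array 3 it was called lower (-0.18, adjusted p = 0.008). Des (desmin) was not called (0.97 ± 0.42, adjusted p = 0.145). It had 183, 296 and 358 with the combination and 25.1, 292 and 264 with PBS, and without PBS array 2 it was called higher (1.52, adjusted p = 0.02). Cald1 (caldesmon) was called lower (-0.14 ± 0.04, adjusted p = 0.0466), and leaving out 1 array ended the call for 5 of the 6 arrays (adjusted p = 0.053 to 0.221). The number of contractile genes called lower was 17, 20 and 19 without numbers 1, 2 and 3, and 3 without the block.

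**Figure D4:**
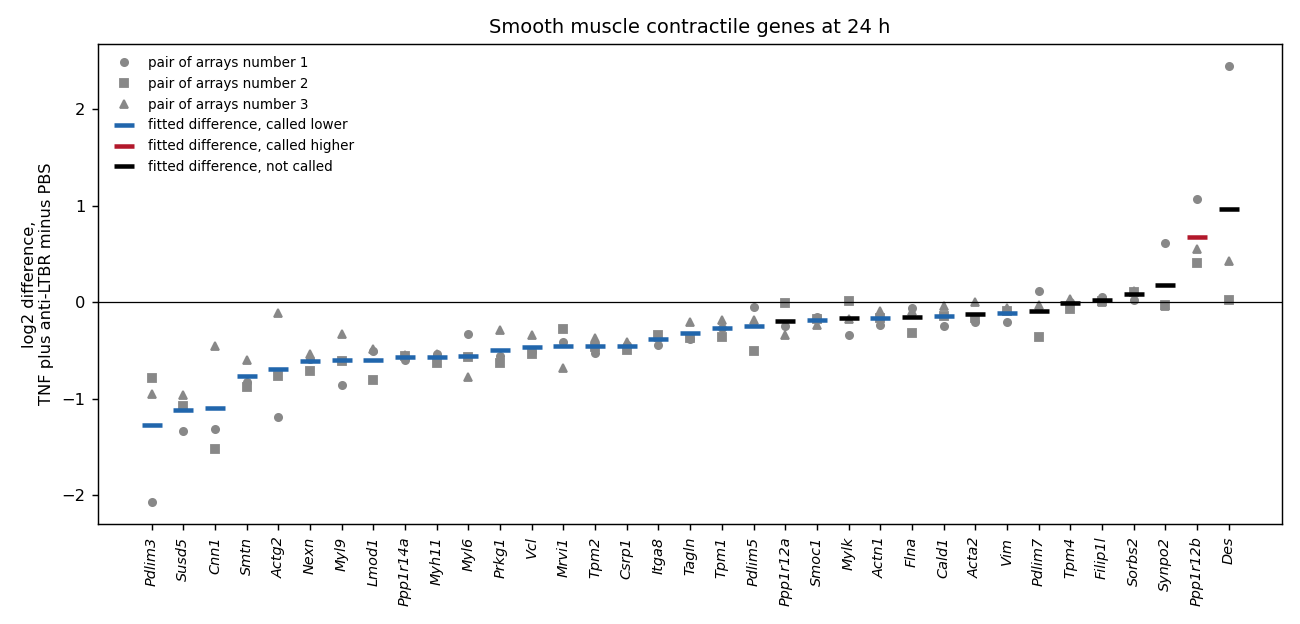
Log2 difference of TNF plus anti-LTBR minus PBS for the 35 tested smooth muscle contractile genes, ordered by the fitted difference. Grey symbols are the 3 pairs of arrays of the same number and bars the fitted difference, blue where called lower, red where called higher and black where not called. In all, 24 bars are blue and 1 is red.

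Some genes of striated muscle were lower as well. Of 16 tested sarcomeric genes 8 were called lower. Acta1, the skeletal muscle actin, had 145, 113 and 109.8 with the combination, against 518, 344 and 282 with PBS, and was 2.88-fold lower (-1.52 ± 0.15, adjusted p = 2.73e-05). Ckb, brain-type creatine kinase, is on the list although it is not the muscle type. It had 999, 960 and 1037 with the combination, against 3214, 2344 and 1690 with PBS, and was 2.33-fold lower. In both genes the combination arrays were even, and array 1 was the highest with PBS. The sarcomeric count was 5 without the combination's array 1 or 2 or PBS array 2, and 4 without number 1 or 2.

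The CArG box, the site of serum response factor, was looked for in the same promoter windows. Of 40 promoters of the contractile genes 4, or 10 percent, held one, against 1.24 percent of those of all tested genes. The share was 2.34 percent among promoters of genes called lower and 1.1 percent among those of genes at least 2-fold lower. The kB motif was present in 12.5 percent of the contractile promoters, against 5.94 percent of those of all tested genes. The promoters of Acta1 (chr8:123894726-123895025, minus strand), with a CArG box 73 bases before the start, and of Myl9 (chr2:156775214-156775513, plus strand) are shown because both genes were lower. In Myl9 the first capitals are a kB match 206 bases before the start and the second a CArG box 161 bases before it.
Acta1: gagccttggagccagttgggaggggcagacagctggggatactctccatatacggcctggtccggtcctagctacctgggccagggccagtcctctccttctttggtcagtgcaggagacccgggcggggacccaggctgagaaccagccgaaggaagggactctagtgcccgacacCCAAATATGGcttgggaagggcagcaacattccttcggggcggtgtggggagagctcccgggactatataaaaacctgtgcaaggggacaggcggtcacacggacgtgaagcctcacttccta
Myl9: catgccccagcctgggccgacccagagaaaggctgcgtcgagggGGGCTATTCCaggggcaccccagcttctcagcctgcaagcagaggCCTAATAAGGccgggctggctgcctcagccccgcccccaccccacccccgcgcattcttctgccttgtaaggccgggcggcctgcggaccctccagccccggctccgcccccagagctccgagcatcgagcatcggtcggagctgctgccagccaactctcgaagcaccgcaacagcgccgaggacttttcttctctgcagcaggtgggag

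Several transcription factors of smooth muscle were lower. Of 29 tested, 7 were called lower and 1 higher, and 3 lower without number 1. The rise was Mrtfa (0.39 ± 0.10, adjusted p = 0.0235), a coactivator of serum response factor, chosen after its values were seen, and its call was lost without array 1 of either group, PBS array 3, or number 1 or 3 (adjusted p = 0.0657 to 0.224). Klf15, a Krüppel-like zinc finger factor, had 114, 17.2 and 95.5 with the combination, against 384, 196 and 241 with PBS, and was 3.85-fold lower (-1.94 ± 0.30, adjusted p = 0.000801). The Notch targets Hey1 and Hey2 were lower too. Hey1 had 60.8, 31.6 and 40.1 with the combination, against 268, 109.5 and 116 with PBS (-1.60 ± 0.28, adjusted p = 0.00176). Hey2 had 451, 1175 and 933 with the combination, against 888, 1779.8 and 1749.7 with PBS. The Hey1 groups lay apart, while those of Hey2 overlapped because array 1 was low in both. Mef2c, a factor of muscle gene expression, was 1.79-fold lower in the same manner.

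Genes of signalling pathways of vessel and skeletal development were among the falls. In the BMP and TGF-beta pathway 14 of 37 tested genes were called lower and 3 higher, and 11 to 15 were called lower with any 1 array or number left out. The 3 rises were 1 without array 1 of either group, PBS array 3, or number 1 or 3. Id1, Id2 and Id4 are direct targets of BMP signals that block helix-loop-helix factors. Id1 had 1598, 1365 and 1489.5 with the combination, against 3701, 2434 and 2523 with PBS, and was 1.91-fold lower (-0.93 ± 0.09, adjusted p = 2.59e-05). Id4 had 567, 679.6 and 535 with the combination, against 1097, 1807 and 1303 with PBS, and Bambi, a decoy receptor of the same pathway, had 339.5, 277 and 372 with the combination, against 657, 661 and 711 with PBS. No array of the combination reached the PBS range in these 3 genes. Of 29 tested Wnt pathway genes 11 were called lower, and 6 without number 1. Fzd1, a Wnt receptor, was 1.45-fold lower and Tcf7l1, a Wnt effector, 1.54-fold lower. Sost (sclerostin), a Wnt inhibitor known from bone and listed here with the osteogenic genes, had 124, 464 and 1147 with the combination, against 643, 4434 and 5155 with PBS. Array 1 was lowest in both groups, so that the groups overlapped, and each pair was lower by a wide margin (-2.56 ± 0.24, 5.88-fold lower, adjusted p = 2.22e-05). Sost was the largest fall of any tested gene.

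Collagens and proteoglycans were called lower more often than all tested genes, and metalloproteinases higher more often. Of all tested genes 8.14 percent were called higher and 9.53 percent lower. Of 36 tested collagen genes 10 (27.8 percent) were called lower and 3 (8.33 percent) higher. The falls were 6 without number 1, and the rises 1 without array 1 of either group or the combination's array 2. Col11a1, a fibril-forming collagen of cartilage, had 4366, 2223 and 4411 with the combination, against 9187, 4581 and 8200.3 with PBS, and was 2-fold lower (adjusted p = 4.39e-07). Col8a1, a collagen of vessel walls, fell 1.24-fold. Of 41 tested proteoglycans and glycoproteins 14 (34.1 percent) were called lower and 5 (12.2 percent) higher. The 14 were 8 or 9 without the combination's array 2 or 3 or PBS array 2, and the 5 were 3 without array 2 of either group or PBS array 3, and 1 without array 1 of either group. Acan (aggrecan), the large proteoglycan of cartilage that also lies in the vessel wall, had 1158, 727 and 790 with the combination, against 5353, 2156 and 2456 with PBS, and was 3.46-fold lower (-1.79 ± 0.14, adjusted p = 7.38e-06). PBS array 1 was high for its group, and every combination array lay below all PBS arrays. Vcan (versican) fell 1.94-fold and Omd (osteomodulin) 1.52-fold. Among 28 tested metalloproteinases and inhibitors 7 (25 percent) were called higher and 3 (10.7 percent) lower. The rises were 4 without the combination's array 1 and 2 without number 1, and the falls 1 without number 2 or 3. Timp1, an inhibitor of matrix proteases, rose 1.34-fold, with 11779, 8797 and 10753 under the combination and 8202, 7382 and 7723 under PBS, and Adam19, a membrane protease, 1.85-fold. Of 16 tested integrins 6 were called lower, and 3 without number 1 or 3. Itga8, the integrin of contractile smooth muscle, was 1.3-fold lower and the collagen receptor Itga1 1.92-fold lower.

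Growth factors and guidance molecules split both ways. Of 45 tested growth factors and receptors 7 were called higher and 10 lower. Angptl4, an inhibitor of lipoprotein lipase, had 2103, 935 and 1436 with the combination, against 435, 319 and 463 with PBS, and rose 3.47-fold. Fgfr3 had 913, 291 and 606 with the combination, against 2957, 730.3 and 1480.5 with PBS, and fell 2.67-fold, with array 1 highest in both groups. Fgfr2 fell 1.49-fold and Pdgfa, a mitogen of mesenchymal cells, 1.49-fold, while Pdgfra, a receptor for that mitogen, rose 1.6-fold. Of 30 tested axon guidance genes 6 were called higher and 11 lower, the falls being 6, 6 and 7 without numbers 1, 2 and 3. Ntn1 (netrin-1) had 1166, 811 and 631 with the combination, against 229, 333 and 223 with PBS, and rose 3.19-fold. Its relative Ntn4 fell 1.58-fold and the repellent Slit2 1.56-fold. F3 (tissue factor), which starts coagulation, had 1191, 488 and 485 with the combination, against 2995, 1671 and 1079.5 with PBS, and fell 2.65-fold, each pair being lower.

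Metabolic and stress genes changed in small numbers. Of 17 tested metallothionein, zinc and iron genes 6 were called higher and 1 lower (Slc30a1, a zinc exporter, -0.34 ± 0.08, chosen after its values were seen, and not called without PBS array 2 or any number, adjusted p = 0.0535 to 0.109). Mt2 had 12374, 7418 and 9239 with the combination, against 2417, 1340.5 and 1560.2 with PBS, and rose 5.49-fold (2.46 ± 0.10, adjusted p = 2.37e-08), and Mt1 rose 3.26-fold. Gch1, the first enzyme of tetrahydrobiopterin synthesis, rose 3.12-fold and Cybb, the catalytic subunit of the phagocyte NADPH oxidase, 2.83-fold, while its smooth muscle relative Nox4 fell 1.51-fold. Lpl (lipoprotein lipase) had 355, 279 and 454 with the combination, against 1112, 824 and 1149 with PBS, and fell 2.81-fold (-1.49 ± 0.10, adjusted p = 1.55e-06). Fabp5, a fatty acid carrier, fell 1.86-fold. Of 26 tested glycolysis genes 9 were called higher and 1 lower (Tkt, transketolase, -0.16 ± 0.04, chosen after its values were seen, and not called without array 1 of either group, the combination's array 2, or number 1 or 2, adjusted p = 0.0568 to 0.14). The rises were 5 without the combination's array 2 or number 1. Pfkl, a subunit of phosphofructokinase, rose 1.55-fold. The stress factor Atf4 fell 1.43-fold and its target Chac1 1.87-fold.

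Genes of early response were mixed as well. Junb, an AP-1 subunit, had 1080.2, 1076 and 996 with the combination, against 295, 335 and 391 with PBS, and rose 3.05-fold (1.61 ± 0.10, adjusted p = 1.16e-06). Fos, its classical partner, had 325, 294 and 538 with the combination, against 746, 629.5 and 948 with PBS, and was 2.02-fold lower (-1.02 ± 0.11, adjusted p = 6.88e-05). Myc rose 1.96-fold. The 3 genes lay apart between groups. Gem and Rrad, RGK GTPases that limit voltage-gated calcium channels, rose from low signals. Gem had 733, 304 and 282 with the combination, against 58.3, 66.1 and 60.7 with PBS, and Rrad had 307, 283 and 223 with the combination, against 41.1, 50.8 and 9.7 with PBS. Clca3a2, named as a chloride channel accessory gene, had 9346, 2525 and 2103 with the combination, against 1872, 244 and 225 with PBS, and rose 7.64-fold, with array 1 highest in both groups. Scube3, a secreted glycoprotein with EGF-like domains, had 532, 1943 and 1115 with the combination, against 41.7, 192 and 64.6 with PBS, and rose 11.5-fold.

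The remaining genes among the 15 largest falls whose groups did not overlap had varied roles, and some had low signals. Chdh, choline dehydrogenase, had 9.9, 9.6 and 68.8 with the combination, against 174, 85.6 and 164 with PBS (-2.20 ± 0.43, adjusted p = 0.00423). Inmt, an indole methyltransferase, had 132, 109.6 and 127 with the combination, against 453, 338 and 416 with PBS, and was 3.08-fold lower. Rgcc, a regulator of the cell cycle, was 2.66-fold lower, Ldlrad3 2.48-fold, Fry 2.45-fold, Gramd1c 2.61-fold, Col19a1 2.41-fold and Csgalnact1, an enzyme of chondroitin sulfate synthesis, 2.42-fold lower. Tfeb, a factor of lysosomal genes, had 145, 382 and 122 with the combination, against 695, 387 and 451 with PBS. The combination's array 2 thus lay just below PBS array 2. The call of Tfeb (-1.33 ± 0.37, adjusted p = 0.0273) was lost without array 1 or 3 of either group (adjusted p = 0.0982 to 0.136). That of 4930500F04Rik, 4.01-fold lower (adjusted p = 0.0347) was lost without any 1 of the 6 arrays (adjusted p = 0.0585 to 0.132).

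Each agonist alone was set beside the combination to see which of these genes differed from it. Against TNF alone 324 genes were higher with the combination, 2.64 percent, and 287 lower, 2.34 percent. Against anti-LTBR alone 275 were higher, 2.24 percent, and 242 lower, 1.97 percent. These counts moved strongly with number 1. Without it, 27 genes were called against TNF and 93 against anti-LTBR, where all numbers gave 611 and 517. Leaving out number 2 gave 142 and 241, number 3 382 and 294, the combination's array 1 250 and 321, and its array 2 182 and 262. Leaving out TNF array 1 or 2 gave 191 and 343 genes against TNF, and leaving out anti-LTBR array 1, 2 or 3 gave 267, 260 and 279 genes against anti-LTBR. Set against PBS, whose arrays all 3 treatments share, TNF alone had 330 genes higher (2.69 percent) and 245 lower (2 percent), and anti-LTBR alone 205 higher (1.67 percent) and 116 lower (0.945 percent).

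Several chemokines were higher with the combination than with either agonist. Ccl5 had 5704, 5885 and 4115 with the combination, against 1471, 1535 and 1366 with TNF and 190.2, 323 and 268 with anti-LTBR. The 3 groups did not overlap (1.82 ± 0.18 against TNF, adjusted p = 0.00106, and 4.29 ± 0.18 against anti-LTBR, adjusted p = 6.66e-07). Ccl9 had 4773, 2809 and 2903 with the combination, against 1302, 1059.5 and 1124 with TNF and 2512, 1426 and 1992 with anti-LTBR. It was higher than with TNF by 1.54 ± 0.14 (adjusted p = 0.000855) and than with anti-LTBR by 0.81 ± 0.14 (adjusted p = 0.00557, and 0.0696 without number 2). Cxcl10 had 1571, 2064 and 1187 with the combination, against 190.5, 258 and 164 with TNF and 258, 398 and 459.9 with anti-LTBR. Its combination arrays lay above those of both agonists (2.90 ± 0.34 against TNF, adjusted p = 0.00143, and 2.08 ± 0.34 against anti-LTBR, adjusted p = 0.00474). The second of these calls was lost without number 1 or 2 (adjusted p = 0.075 and 0.0904). The calls of Ccl5, Ccl7, Ccl9, Cxcl10 and Icam1 against TNF held with any 1 number or array left out.

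Interferon-inducible genes were set against each agonist too. Of the 9 interferon-inducible GTPases 9 were higher with the combination than with anti-LTBR and 2 higher than with TNF. Gbp2 had 3863, 5068 and 3703 with the combination, against 2262, 2671 and 2671 with TNF and 389, 752 and 988 with anti-LTBR. It was higher than with anti-LTBR by 2.64 ± 0.23 (adjusted p = 9.43e-05) and differed from TNF by 0.72 ± 0.23 (adjusted p = 0.0989). Of 32 antiviral effectors 24 were higher than with anti-LTBR and 3 higher than with TNF. Without number 1 the counts against anti-LTBR were 3 for the GTPases and 3 for the antiviral effectors, and without the combination's array 2 or anti-LTBR array 2 they were 8 and 15. The counts against TNF ran over 0 to 6 and 1 to 7 with 1 array left out. Hp had 1818, 810.1 and 1244 with the combination, against 1709, 715 and 1227 with TNF and 221, 97.4 and 102 with anti-LTBR, and its combination and TNF arrays overlapped. Saa3 had 2719, 389.6 and 1016 with the combination, against 2086, 359 and 862 with TNF and 64.4, 126 and 119 with anti-LTBR. Nfkb2 had 1865, 1245 and 919 under the combination, 694, 433 and 501 under TNF and 1201, 904 and 811 under anti-LTBR. It was higher than with TNF by 1.26 ± 0.15 (adjusted p = 0.00143, and 0.0621 without number 1), and the difference from anti-LTBR was 0.42 ± 0.15 (adjusted p = 0.159). Scube3 was also higher than with TNF (1.85 ± 0.19, adjusted p = 0.00106), with 532, 1943 and 1115 under the combination, 117, 475 and 404 under TNF and 288, 1281 and 724 under anti-LTBR.

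**Figure D5:**
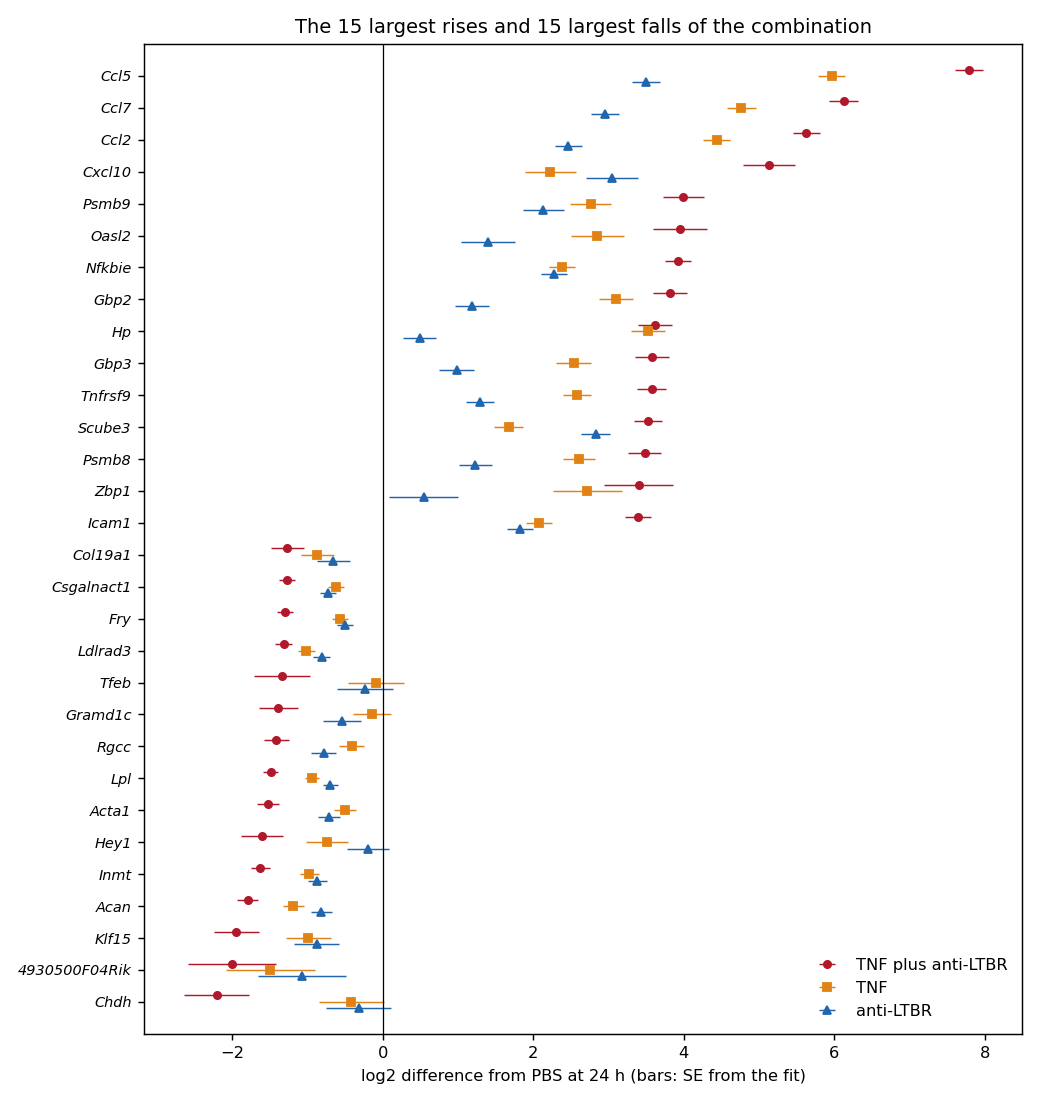
Log2 difference from PBS at 24 h of TNF plus anti-LTBR (circles), TNF (squares) and anti-LTBR (triangles), with bars for the SE of the fit, for the 15 largest rises and 15 largest falls of the combination among genes whose groups did not overlap. The 3 treatments share the PBS arrays. Ccl5 stands at 7.79 for the combination, 5.96 for TNF and 3.50 for anti-LTBR.

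Falls were also compared with each agonist. Sost had 124, 464 and 1147 with the combination, against 363, 1661 and 3062 with TNF and 226, 2480.5 and 3715 with anti-LTBR. It was lower than with TNF (-1.57 ± 0.24, adjusted p = 0.00439) and than with anti-LTBR (-1.63 ± 0.24, adjusted p = 0.00266), and both calls held with any 1 number or array left out. Acta1 had 145.1, 113 and 109.8 with the combination, against 318, 248 and 219 with TNF and 313, 235 and 145.4 with anti-LTBR. The combination arrays lay below the TNF arrays, while the highest of them all but met the lowest anti-LTBR array. It was lower than with TNF (-1.03 ± 0.15, adjusted p = 0.00314, 0.0929 without number 1 and 0.0563 without number 2). It was also lower than with anti-LTBR (-0.81 ± 0.15, adjusted p = 0.00916), a call lost without number 1 or 2 or anti-LTBR array 1 or 2 (adjusted p = 0.0586 to 0.187). Of 35 contractile genes 5 were lower and 1 higher than with TNF, and 10 were lower than with anti-LTBR. The 5 were 1 without the combination's array 1 or 2, 0, 3 and 2 without TNF array 1, 2 and 3. The 10 were 1 without number 1, and 5 or 6 without the combination's array 1 or 2 or without any anti-LTBR array.

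Cell cycle genes were compared with PBS and with TNF, comparisons that share the combination's arrays. Against PBS 2 of 54 tested mitosis genes (3.7 percent) were called higher, and 8 of 43 tested genes of DNA replication (18.6 percent). Of all tested genes 8.14 percent were called higher. Without array 1 of either group or the combination's array 2 these counts were 0 for mitosis and 2 or 3 for replication. Against TNF 22 mitosis genes and 15 replication genes were higher with the combination, and 0 of either list without number 1. Of all tested genes 2.64 percent were higher than with TNF. TNF alone had 16 mitosis genes and 6 replication genes lower than PBS, where 2 percent of all tested genes were lower. The median differences of TNF from PBS were -0.398 and -0.225. Both comparisons with TNF share the TNF arrays. The mitosis count was 6 without array 1 of either group, 5 without the combination's array 2, 13 without its array 3 and 9 without TNF array 3, and the replication count 7 without the combination's array 2 and 8 without TNF array 1. Mcm7, a subunit of the replicative helicase, had 2259.9, 2790 and 1875 with the combination, 1359, 1778 and 1207 with TNF, 2159, 2310.3 and 1777 with anti-LTBR and 1425, 1739.8 and 1448 with PBS. It was higher than with TNF by 0.67 ± 0.08 (adjusted p = 0.00133, and 0.0591 without number 1) and than with PBS by 0.57 ± 0.08 (adjusted p = 0.000301). Uhrf1, which guides maintenance methylation of DNA, had 647, 1029.7 and 405 with the combination, 278, 439 and 202 with TNF, 549, 692 and 332 with anti-LTBR and 359.9, 472 and 351 with PBS, and its groups overlapped.

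Motif matches were counted over the RefSeq promoters of 9930 tested genes. The kB motif was present in 16.6 percent of promoters of genes at least 2-fold higher with the combination and in 3.3 percent of those at least 2-fold lower, against 5.94 percent of those of all tested genes. The interferon motif was present in 20.7 percent and 3.3 percent of the same promoters, against 2.88 percent of all tested. The CArG box was present in 1.55 percent and 1.1 percent of them, against 1.24 percent of all tested. Of the 15 largest rises whose groups did not overlap 10 had a promoter in RefSeq. Cxcl10, Gbp2, Nfkbie and Tnfrsf9 held the kB motif, and Cxcl10, Gbp2, Gbp3 and Scube3 the interferon motif. Of the 15 such falls 12 had one, of which 0 held the kB motif, Ldlrad3 the interferon motif and Acta1 a CArG box. A match is a description of these letters in this window and not of binding.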

How the data were processed

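Affymetrix mouse arrays of 45101 probe sets were used. The deposited values are linear intensities, for which the submitters' processing notes name GCOS 1.4. In the file the mean of each of the 21 arrays, without the highest and lowest 2 percent of values, was 500, a scaling seen in the values. How probe sets were summarized is a step not given in the sources used here. To the intensities the constant 10.2 (percentile 10 of the signals at 24 h) was added before log2 was taken.

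Of 34945 probe sets with 1 gene symbol, 932 with several and 9160 with none, those above the median of their own array (107.5 to 139) on at least 3 of 12 arrays were kept, and the probe set of the highest mean stood for a gene. limma 3.58.1 in R 4.3.3 fitted 12278 genes over 12 arrays (TNF plus anti-LTBR, TNF, anti-LTBR and PBS, numbers 1 to 3) with the number as a block and a mean-variance trend, leaving 6 residual degrees of freedom, and adjusted p by Benjamini-Hochberg over all genes. Tables and plots used Python 3.11.15 with pandas 2.3.3, numpy 2.4.6 and matplotlib 3.10.9. The number of arrays limits the precision.

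Titles give the numbers. Over 18 pairs of arrays with the same number, deviations from group means correlated at 0.502 to 0.732, and at -0.501 to 0.000959 over 36 other pairs. Deviations within a group cancel out, so that positive correlations of the same number tend to make the others negative. On simulated data for the comparison with PBS, over 12278 genes, 56, 76, 96 and 98 percent of 50 genes each were recovered at log2 changes of 0.5, 1, 2 and 3. False calls numbered 10, or 5.78 percent of the calls. The simulated noise was independent between genes, and only these genes were changed, where 2169 were called in the data. The shares recovered need not hold for the data.

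Genes named in the text are the 15 largest rises and 15 largest falls among called genes whose groups did not overlap, up to 4 called members of each of 67 lists by adjusted p, all tested organizer, non-canonical NF-kB and contractile genes, and the 5 largest called differences each way from each agonist under the same rule; others are said to be chosen after their values were seen. Members and lists were chosen with earlier results of these data known. Alternatives were the block, other sets of arrays, pseudocount, filter, scaling, probe set choice, the variance model and leaving out arrays; leaving out single arrays in the comparisons with TNF and anti-LTBR was chosen after seeing the data.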

Additional observations from a re-analysis of the deposited data

Results flagged for a closer look

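Probe sets without 1 gene symbol were outside the gene comparison. Of 3118 such probe sets that passed the same filter, 123 were called higher and 130 lower in TNF plus anti-LTBR than in PBS. Both are smaller shares than among the tested genes, of which 8.14 percent were called higher and 9.53 percent lower. The probe set 1436003_at had signals of 1939, 3312 and 3605 with the combination, against 82, 149.7 and 94.6 with PBS, a log2 difference of 4.63. The probe set 1423954_at had 13566, 5121 and 5154 with the combination, against 1626, 232.2 and 337.8 with PBS (3.78). Among the falls, 1442953_at had 54.2, 60.5 and 43 with the combination, against 122.2, 189.7 and 155.4 with PBS (-1.39), and 1443823_s_at had 6.9, 127.7 and 156.7 with the combination, against 80, 269.4 and 243.3 with PBS (-1.34), where the groups overlapped. These are the 2 largest differences each way. The probe set shared by Ccl19 and other gene symbols is described with the organizer genes.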

How the results depend on the processing

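Of the processing choices, the block on array number mattered most. Against PBS, 264 genes were higher, 107 lower and 371 changed either way without the block, all 371 also called with it, and 231, 82 and 313 without it over all 15 arrays at 24 h. Against TNF the counts without the block were 5, 2 and 7, and against anti-LTBR 55, 1 and 56. The probe set of the lowest mean gave 726 lower and 1430 either way against PBS. Equal medians gave 189 higher and 386 either way against TNF, and 181 higher against anti-LTBR. With 1 number or 1 array left out, the counts against PBS ran over 502 to 845 higher, 546 to 926 lower and 1048 to 1721 either way. They ran over 18 to 251, 9 to 231 and 27 to 460 against TNF, and over 52 to 238, 41 to 181 and 93 to 419 against anti-LTBR. The sign turned with the probe set of the lowest mean for Ptx3 (-0.39), Plat (-0.38), Tpm1 (0.21), Fzd6 (0.21), Ramp1 (0.29) and Rps20 (0.12), with the mean over probe sets for Rps20 (0.049), and without the block over all 15 arrays for Procr (-0.21) and Myh11 (0.32). Fewer arrays enter the fits with arrays left out; the cause of the other changes was not tested. Signals near the low end of an array limit the fold changes of dim genes.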
